A study of Mus musculus with 12 samples.

Results

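A set of 42 genes of DNA replication and S phase was followed in cultures of mouse cardiac fibroblasts, which lay down the heart's connective tissue matrix. They were matched by gene name to the count tables of both times, in which all 42 of 42 members were found among 26240 genes at 4 h and 27020 genes at 24 h, and all 42 passed the filter on low counts in every comparison. The cells were primary fibroblasts from hearts of C57BL/6 mice, kept in DMEM with 10% FBS. They received ethanol as vehicle or 6 µM MCB-613-10-1, which derives from MCB-613 and is described as anti-fibrotic, for 4 h or 24 h, with 3 RNA libraries in each of the 4 groups. The labels give no genotype beyond the strain, no age, and no word on whether the 3 libraries of a group came from separate cultures or animals, so p-values measure only the spread between these libraries, which may be technical.

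Before a cell copies its genome, the origin recognition complex with Cdc6 and Cdt1 loads the MCM2-7 helicase onto origins, a step called licensing. In S phase Cdc45 and the GINS complex join MCM2-7 to form the active helicase, primase and the polymerases copy both strands, and the sliding clamp PCNA, placed by the clamp loader RFC, holds the polymerases on DNA. RPA coats single strands, Fen1 and Lig1 finish the lagging strand, ribonucleotide reductase, Tyms and Tk1 supply nucleotides, and CAF-1 and Uhrf1 carry chromatin and DNA methylation over to the copies. Many of these genes are transcribed with the cell cycle under E2F factors, so in a culture their RNA tends to follow the share of cycling cells. RNA from whole cultures cannot tell fewer cells in S phase from less RNA in each cell.

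Each library of 4 h held between 26869195 and 31596784 counts, and each of 24 h between 25016754 and 34877090. Vehicle replicate 1 at 4 h stood apart from its group, with a chi-square per degree of freedom of 31.0 and 33.0 against the other 2 libraries, where the pairs within groups that did not involve it lay between 6.67 and 13.8. Ribosomal RNA genes took 0.543% to 0.9% of counts in vehicle and 0.949% to 1.1% in treated libraries at 4 h, and 2.27% to 4.09% at 24 h. Fibroblast markers were abundant, with a summed level of 14163 to 15972 CPM (counts relative to library size, scaled by TMM within a time) in vehicle at 4 h, 14017 to 16520 in treated libraries at 4 h, 15517 to 19315 in vehicle at 24 h and 6584 to 6938 in treated libraries at 24 h, and the 8 cardiomyocyte markers summed to 5.57 to 22.3 CPM in a library. Nearly all of that was Tnnt2, at means of 16.1, 15.9, 17.3 and 6.40 CPM in the same order of groups, which fell at 24 h (-1.44 ± 0.16), while Myh6 was at a mean of 0.0648 CPM or below in every group. The 10 macrophage and leukocyte markers summed to 101 to 110 CPM in vehicle and 71.4 to 92.6 in treated libraries at 4 h, and to 345 to 410 and 155 to 178 at 24 h. All 10 were higher in vehicle at 24 h than at 4 h, and at 24 h 8 were lower and 2 higher after treatment. No marker of the list was at 0 over a whole group, the lowest mean being 0.0733 CPM for Fcgr1 in treated libraries at 24 h. The 7 pericyte and smooth muscle markers summed to 89.1 to 112 CPM over both groups at 4 h, and to 60.1 to 78.5 in vehicle and 18.7 to 20.4 in treated libraries at 24 h, with 4 of 5 tested lower and 0 higher. The 7 epicardial and mesothelial markers summed to 74.7 to 92.4 CPM at 4 h, and to 79.5 to 94.0 and 32.2 to 41.6 at 24 h, with 3 of 6 tested lower and 1 higher, and no marker of either list was at 0 over a whole group. Of 8 endothelial markers 5 were lower and 3 higher after treatment at 24 h. Most of the macrophage and leukocyte sum was Lyz2. Its means were 66.7 CPM in vehicle and 44.6 in treated libraries at 4 h, and 266 and 95.7 at 24 h. Of the 8 fibroblast markers 6 were lower and 1 higher after treatment at 24 h. Of all genes tested 38.0% were lower and 36.7% higher in that comparison, and 25.9% were higher in vehicle over time. The macrophage and leukocyte list thus moved with the members over time and with treatment. The fibroblast, pericyte and epicardial sums moved with them after treatment at 24 h. The part of these lists in the results was not tested.

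At 24 h nearly the whole replication set was lower in treated than in vehicle cells. Of the 42 members 41 fell, 0 rose and Mcm2 did not pass the test (edgeR, adjusted p under 0.05), against 38.0% of all genes tested that fell and 36.7% that rose. The median log2 fold change of treated over vehicle was -1.57 over the members and -0.02 over all genes tested, and the members ran from -4.22 for Pif1 to -0.01 for Mcm2. In those 41 members all 3 treated libraries lay below all 3 vehicle libraries, as they did in 39.4% of all genes, with 38.1% of all genes lying the other way. At an unadjusted p under 0.05 also 41 were lower and 0 higher (38.8% of all genes lower), and DESeq2 (36.0%) and limma-trend on FPKM (37.8%) gave the same counts. Scaling by library totals alone moved the median of all genes at 24 h to -0.21 and the share of all called genes that were lower from 50.9% to 61.0%. The members together took 0.306% to 0.318% of all counts in vehicle and 0.0984% to 0.104% in treated libraries.

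**Figure D1:**
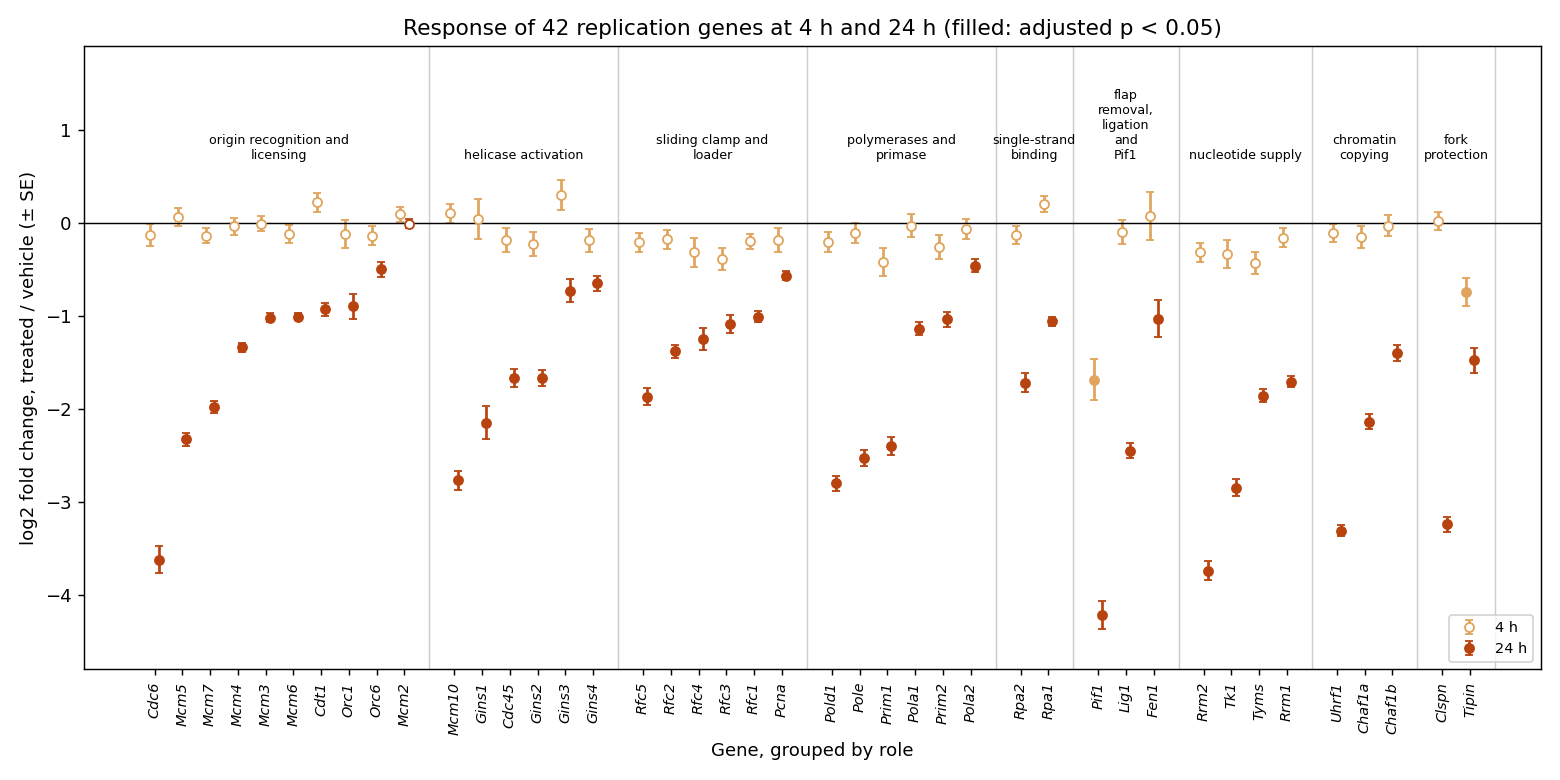
Log2 fold change of treated over vehicle (y axis, ± SE) for each of the 42 genes (x axis, grouped by role and ordered by the 24 h value), at 4 h in light and 24 h in dark orange, with filled points for adjusted p under 0.05. The 24 h points reach from -4.22 for Pif1 to -0.01 for Mcm2, and 2 of the 4 h points, Pif1 and Tipin, are filled.

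Licensing genes fell at 24 h in 9 of 10 cases, against 38.0% of all genes, with a median log2 fold change of -1.01. Cdc6, the ATPase that helps load the helicase (ENSMUSG00000017499, GRCm39 chromosome 11, 98798627 to 98814766), stood at 24.6, 27.2 and 26.2 CPM in the vehicle libraries and at 1.83, 2.74 and 1.65 CPM in the treated ones. The treated libraries were all far below vehicle, and the log2 fold change was -3.62 ± 0.14 (SE, n = 3 libraries per group, adjusted p = 1.85e-14), a 12.3-fold fall. These treated values rest on 45, 84 and 38 reads. Cdt1, its partner in loading, fell less (-0.93 ± 0.07), as did the ATPase subunit Orc1 (-0.90 ± 0.13) and Orc6 (-0.50 ± 0.08) of the origin recognition complex. Orc6 overlaps Vps35 on the other strand, which had 127664 counts over all libraries against 12232 for Orc6.

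Mcm2, one of the 6 subunits of the MCM2-7 helicase (ENSMUSG00000002870, chromosome 6, 88860456 to 88875762), was the exception. Its level at 24 h was 136, 138 and 134 CPM in vehicle and 131, 130 and 143 CPM in treated libraries. The groups overlapped, and the log2 fold change was -0.01 ± 0.05 (adjusted p = 0.813). Scaled by library totals alone it was -0.21 (adjusted p = 0.000556), equal to the median of all genes under that scaling. The other subunits all fell, with log2 fold changes of -2.33 ± 0.07 for Mcm5, -1.98 ± 0.06 for Mcm7, -1.34 ± 0.05 for Mcm4, -1.02 ± 0.05 for Mcm3 and -1.01 ± 0.04 for Mcm6. Mcm7 overlaps Cops6 on the other strand, which had 34742 counts over all libraries against 25210 for Mcm7.

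The uneven fall changed the order of the subunits, a comparison chosen after the values were seen and so given without a test. Per kb of gene length, Mcm2 was the lowest of the 6 in all 9 libraries other than treated at 24 h, and the highest in all 3 treated libraries at 24 h. The lowest rank depends on the deposited lengths, 6956 bases for Mcm2 against 3589 for Mcm4 to 4666 for Mcm6. In mean CPM without the length, Mcm2 in vehicle at 24 h (136) was above Mcm3 (127), Mcm5 (127) and Mcm7 (113). It was below Mcm4 (142) and Mcm6 (164). In treated libraries at 24 h Mcm2 was the highest in CPM too (135, with Mcm6 next at 81.6). In vehicle at 24 h the mean level per kb was 19.6 CPM for Mcm2, 25.5 for Mcm7, 31.7 for Mcm5, 33.8 for Mcm3, 35.2 for Mcm6 and 39.4 for Mcm4. After treatment it was 19.4 for Mcm2, 17.5 for Mcm6, 16.7 for Mcm3, 15.6 for Mcm4, 6.44 for Mcm7 and 6.31 for Mcm5. The log2 ratio of Mcm2 to the geometric mean of the other 5 was -0.74 ± 0.01 (SD, n = 3) in vehicle and 0.78 ± 0.09 in treated libraries at 24 h, and -0.61 ± 0.07 and -0.48 ± 0.08 at 4 h.

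**Figure D2:**
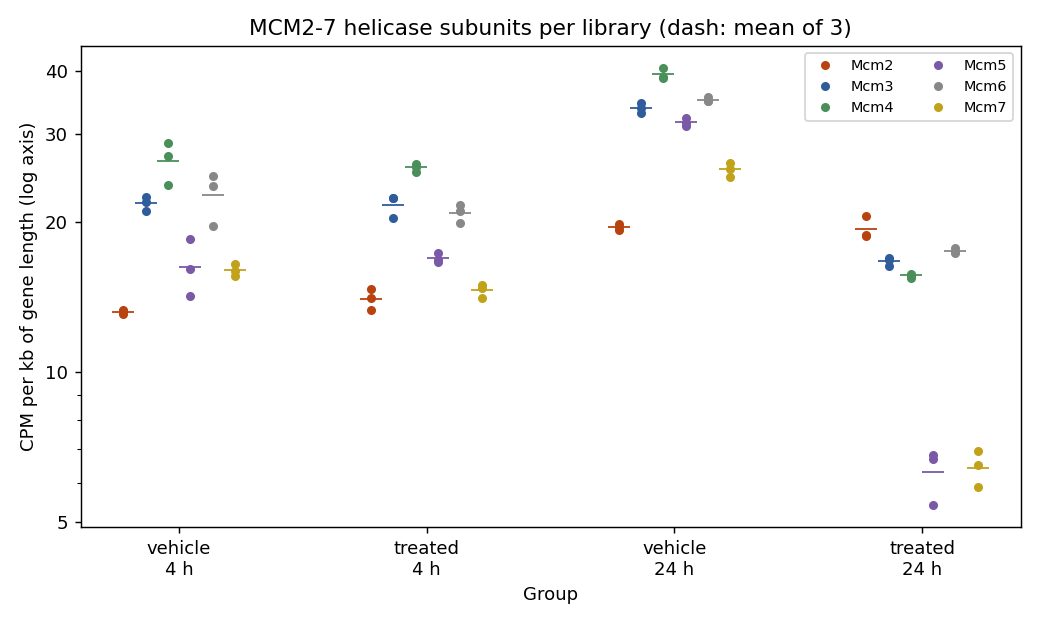
Level of the 6 MCM2-7 subunits in CPM per kb of gene length (log axis) in each library of the 4 groups, with dashes at the mean of 3. Mcm2 lies at the bottom in the first 3 groups and at the top in treated libraries at 24 h, where Mcm5 and Mcm7 are near 6.31 and 6.44. Its place at the bottom depends on the division by gene length.

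Genes of helicase activation fell in 6 of 6 cases at 24 h, against 38.0% of all genes, with a median of -1.67. Mcm10, which helps turn the loaded helicase on (ENSMUSG00000026669, chromosome 2, 4994525 to 5017602), was at 30.2, 32.8 and 32.7 CPM in vehicle and 5.29, 4.59 and 4.09 CPM in treated libraries. Its log2 fold change was -2.77 ± 0.10 (adjusted p = 7.13e-15), with no overlap. Gins4, a GINS subunit (ENSMUSG00000031546, chromosome 8, 23716632 to 23727675), was the member of this class that moved least, from 28.2, 27.8 and 29.2 CPM to 17.2, 17.2 and 20.0 CPM. This too left the groups apart, at -0.65 ± 0.08 (adjusted p = 5.58e-07). Within the 4-subunit GINS complex Gins1 fell by 2.15 and Gins2 by 1.67 on the log2 scale while Gins3 fell by 0.73, and the helicase partner Cdc45 fell by 1.67. Gins2 and Cdc45 overlap genes on the other strand with more counts (Gse1, 12498 against 6657, and Ufd1, 31512 against 5158).

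The clamp and its loader fell in 6 of 6 cases at 24 h, against 38.0% of all genes, with a median of -1.17. PCNA, the sliding clamp encoded by Pcna (ENSMUSG00000027342, chromosome 2, 132091082 to 132095234), fell least, from 99.5, 93.9 and 96.8 CPM in vehicle to 67.1, 62.9 and 66.0 CPM. The groups were apart and the log2 fold change was -0.57 ± 0.05 (adjusted p = 5.22e-09). Rfc5, a clamp loader subunit (ENSMUSG00000029363, chromosome 5, 117516168 to 117527112), fell most, from 40.0, 39.1 and 39.0 CPM to 11.8, 11.1 and 9.22 CPM. That was -1.87 ± 0.09 (adjusted p = 2.26e-13), and the remaining loader subunits lay between -1.38 for Rfc2 and -1.01 for Rfc1. Rfc4 and Rfc5 overlap genes on the other strand with far more counts, Eif4a2 (63401 against 3586) and Wsb2 (95997 against 9087). A copy named Pcna-ps2 is annotated, so reads of Pcna may be split.

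Polymerase and primase genes fell in 6 of 6 cases at 24 h, against 38.0% of all genes, with a median of -1.77. Pold1, the catalytic subunit of polymerase delta (ENSMUSG00000038644, chromosome 7, 44182170 to 44198273), went from 63.9, 60.7 and 60.5 CPM in vehicle to 9.89, 8.34 and 8.40 CPM. Treated libraries were all below, at -2.80 ± 0.08 (adjusted p = 1.43e-16). The catalytic subunit of polymerase epsilon, Pole, fell by 2.53 and the primase catalytic subunit Prim1 by 2.40 on the log2 scale. Pola2, the accessory subunit of polymerase alpha (ENSMUSG00000024833, chromosome 19, 5990570 to 6014230), moved least, from 34.3, 34.0 and 34.3 CPM to 24.6, 26.0 and 23.6 CPM. This was -0.46 ± 0.07 (adjusted p = 5.10e-06), where its catalytic partner Pola1 had -1.14 ± 0.07 and the accessory primase subunit Prim2 had -1.04 ± 0.08.

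Both single-strand binding members, 2 subunits of the RPA complex, fell at 24 h, against 38.0% of all genes. Rpa2 (ENSMUSG00000028884, chromosome 4, 132495643 to 132506063) went from 31.7, 32.8 and 31.8 CPM to 9.44, 8.50 and 11.4 CPM, a log2 fold change of -1.72 ± 0.10 (adjusted p = 3.92e-12). The large subunit Rpa1 (ENSMUSG00000000751, chromosome 11, 75188992 to 75239150) went from 237, 232 and 223 CPM to 118, 110 and 105 CPM, or -1.06 ± 0.05 (adjusted p = 3.06e-13). In both genes the treated libraries were all below vehicle. The small RPA subunit Rpa3, which is no member, fell at 24 h (-1.13 ± 0.13) and at 4 h (-0.97 ± 0.19). Rpa1 and Rpa2 did not pass the test at 4 h.

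All 3 members of the next class, which finish and support DNA synthesis on the lagging strand, fell at 24 h, against 38.0% of all genes. Pif1, a helicase that displaces flaps and unwinds G-quadruplexes (ENSMUSG00000041064, chromosome 9, 65494442 to 65503249), had the largest fall of the set. Its level was 17.9, 17.5 and 17.6 CPM in vehicle and 1.02, 1.07 and 0.696 CPM in treated libraries, on 25, 33 and 16 reads. The groups were far apart, at -4.22 ± 0.15 (adjusted p = 5.80e-15), an 18.7-fold fall. Lig1, the ligase that seals nicks, fell by 2.45 on the log2 scale. Fen1, the flap endonuclease (ENSMUSG00000024742, chromosome 19, 10176496 to 10181533), was low, at 4.69, 6.38 and 5.61 CPM in vehicle and 3.34, 1.95 and 2.92 CPM in treated libraries. The groups were apart at -1.03 ± 0.20 (adjusted p = 0.000126), but Fen1 overlaps Tmem258 on the other strand, which had 8224 counts against 1413.

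Genes of nucleotide supply had a median of -2.35 and fell in 4 of 4 cases at 24 h, against 38.0% of all genes. Rrm2, the small and cell cycle-controlled subunit of ribonucleotide reductase (ENSMUSG00000020649, chromosome 12, 24758240 to 24764145), went from 158, 161 and 157 CPM to 14.4, 11.2 and 10.0 CPM. Treated libraries were all below, at -3.74 ± 0.10 (adjusted p = 1.38e-10), a 13.3-fold fall. The large subunit Rrm1 (ENSMUSG00000030978, chromosome 7, 102090902 to 102118978) fell less, from 384, 389 and 364 CPM to 119, 124 and 104 CPM, or -1.71 ± 0.06 (adjusted p = 2.96e-14). Thymidine kinase 1, Tk1, fell by 2.85 and thymidylate synthase, Tyms, by 1.86 on the log2 scale. A copy named Tyms-ps is annotated, so reads of Tyms may be split.

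The genes that copy chromatin, 3 of 3, fell at 24 h with a median of -2.14, against 38.0% of all genes that fell. Uhrf1, which reads hemimethylated DNA and recruits the maintenance methyltransferase (ENSMUSG00000001228, chromosome 17, 56610321 to 56630486), went from 110, 112 and 109 CPM to 11.7, 11.2 and 10.5 CPM. The libraries of each group were close together, and the change was -3.31 ± 0.06 (adjusted p = 7.17e-19). Chaf1b, a subunit of the histone chaperone CAF-1 (ENSMUSG00000022945, chromosome 16, 93680789 to 93703003), went from 37.1, 34.1 and 33.1 CPM to 13.9, 11.6 and 14.2 CPM, or -1.40 ± 0.09 (adjusted p = 2.40e-11), and its partner Chaf1a fell by 2.14. The fork protection genes also fell, 2 of 2, against the same share of all genes. Clspn, the claspin that links stalled forks to the checkpoint kinase Chk1 (ENSMUSG00000042489, chromosome 4, 126450728 to 126487696), went from 54.2, 52.5 and 53.9 CPM to 5.94, 5.57 and 5.44 CPM, or -3.24 ± 0.08 (adjusted p = 1.92e-17). Tipin, which binds Timeless at the fork (ENSMUSG00000032397, chromosome 9, 64188863 to 64212706), went from 39.0, 38.9 and 35.3 CPM to 11.4, 16.8 and 12.1 CPM, or -1.48 ± 0.13 (adjusted p = 1.20e-06). In all 4 genes the groups did not overlap.

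**Figure D3:**
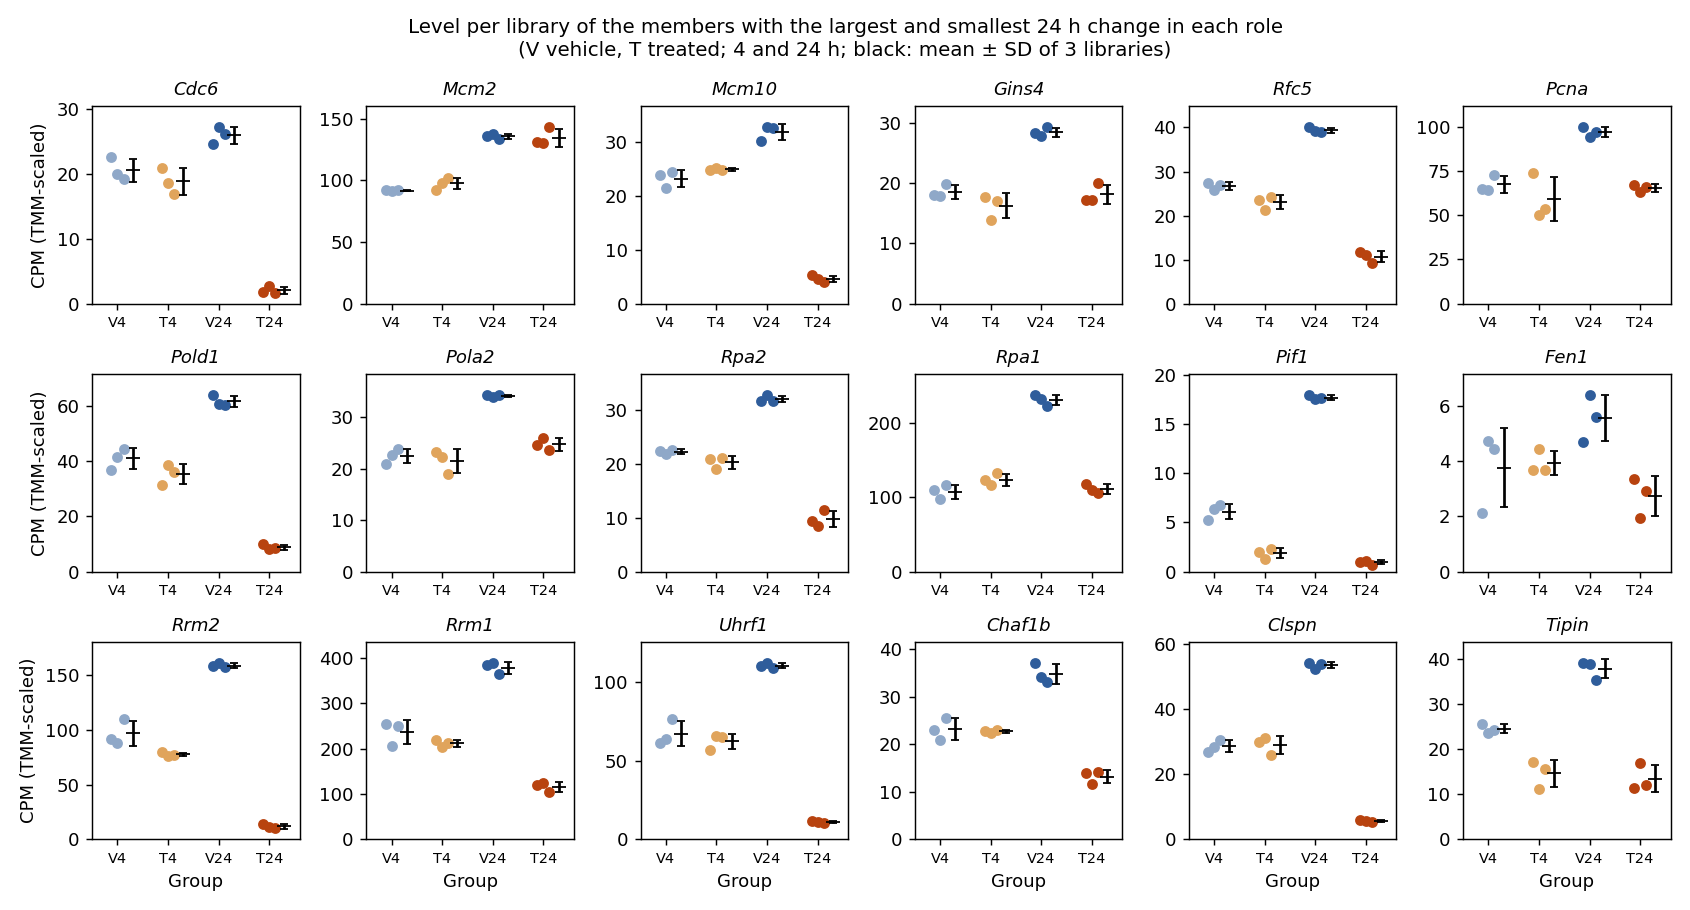
CPM (y axis, from 0) in each library of the 4 groups (x axis, V vehicle and T treated at 4 and 24 h) for the members with the largest and smallest 24 h change of each role class, with the mean ± SD of 3 libraries in black. Treated libraries at 24 h are below the vehicle libraries at 24 h in each panel but that of Mcm2.

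Some partner subunits of a complex fell by unequal amounts, while others fell alike, such as Mcm3 (-1.02) and Mcm6 (-1.01). The pairs that follow were chosen after the values were seen and are described without a test. The log2 ratio of Rrm2 to Rrm1 per kb went from 0.73 ± 0.03 (SD, n = 3) in vehicle to -1.31 ± 0.23 in treated libraries at 24 h, that of Prim1 to Prim2 from 0.36 ± 0.03 to -1.0 ± 0.18, and that of Gins1 to Gins4 from -2.07 ± 0.10 to -3.57 ± 0.31. The same difference, treated minus vehicle at 24 h, was -0.75 for Chaf1a over Chaf1b, -0.67 for Rpa2 over Rpa1 and -0.67 for Pola1 over Pola2. In all 6 pairs the subunit that fell more was set on top, so the direction of the change was fixed by that choice. Every treated library at 24 h was below every vehicle library at 24 h in these pairs. The sign of a ratio depends on the deposited gene lengths, while its change between groups does not.

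**Figure D4:**
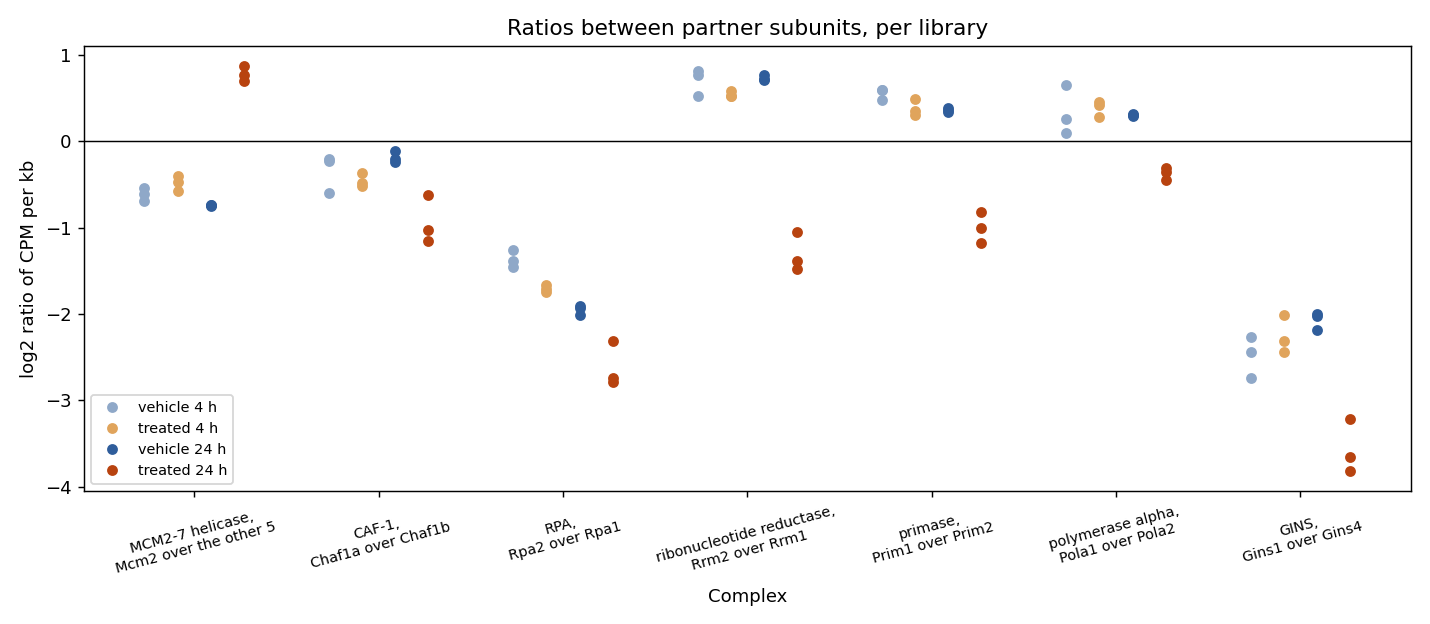
Log2 ratio of CPM per kb between partner subunits (y axis) in each library, coloured by group, for 7 complexes (x axis). At 24 h the treated libraries lie above vehicle for Mcm2 and below it for the other 6 ratios, which have the subunit that fell more on top.

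Levels per kb also changed in order, and these ranks depend on the deposited gene lengths. In CPM without the length the highest member in vehicle at 24 h was Rrm1, of 11012 bases, at a mean of 379. Rrm2, of 2771 bases, was at 159. In vehicle at 24 h the highest members per kb were Rrm2 at 57.2 CPM, Rpa1 at 41.4, Pcna at 40.3 and Mcm4 at 39.4. After treatment Pcna led at 27.2 CPM, followed by Rpa1 at 19.9 and Mcm2 at 19.4, and Rrm2 stood at 4.29. The lowest members after treatment were Pif1 at 0.212, Cdc6 at 0.397, Mcm10 at 0.606, Pole at 0.625 and Clspn at 0.786 CPM per kb.

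At 4 h few members passed the test. Of 42 members 2 fell, Pif1 and Tipin, and 0 rose, against 3.71% of all genes tested that fell and 3.45% that rose. The median log2 fold change was -0.13 over the members and -0.01 over all genes, with 33 members below 0 and 9 above. At an unadjusted p under 0.05 there were 8 members lower and 0 higher, against 12.7% of all genes lower. DESeq2 called 3 lower and 0 higher, against 4.93% of all genes lower, and limma-trend on FPKM 2 and 0, against 2.48%. All 3 treated libraries lay below all 3 vehicle libraries in 11 members and above them in 3 (Mcm2, Mcm10 and Gins3), against 15.2% and 14.5% of all genes. With library totals alone the share of all called genes that were lower rose from 51.8% to 65.5%, and 5 members fell, against 5.31% of all genes.

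Pif1 was at 5.22, 6.35 and 6.73 CPM in vehicle and 2.03, 1.32 and 2.29 CPM in treated libraries at 4 h. The groups did not overlap, and the log2 fold change was -1.69 ± 0.22 (adjusted p = 0.000717). Tipin went from 25.5, 23.6 and 24.3 CPM to 17.1, 11.2 and 15.5 CPM, again without overlap, at -0.74 ± 0.15 (adjusted p = 0.00981). Its partner Timeless, which is no member and was picked after its values were seen, fell by 0.56 (adjusted p = 0.0167).

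The next largest differences at 4 h did not pass the test. Tyms was at 26.7, 29.5 and 33.3 CPM in vehicle and 24.7, 19.5 and 22.4 CPM in treated libraries, at -0.43 ± 0.12 (adjusted p = 0.0568). Prim1 was at 21.2, 18.3 and 21.5 CPM and 18.6, 12.7 and 14.3 CPM, with overlap, at -0.42 ± 0.15 (adjusted p = 0.106). Rfc3, a clamp loader subunit, was at 14.9, 16.9 and 17.9 CPM and 12.6, 12.7 and 12.6 CPM, at -0.39 ± 0.12 (adjusted p = 0.0635), and the groups of Tyms and of Rfc3 did not overlap. The labels do not say that the replicate numbers pair libraries. With the number as a block, 6 members fell, against 6.74% of all genes. The 4 added were Tyms (adjusted p = 0.0352), Prim1 (0.0344), Rfc3 (0.0440) and Rrm2 (0.0379). Without vehicle replicate 1, the library that stood apart, 5 members fell, against 5.35% of all genes, with Tyms (adjusted p = 0.0103), Rfc3 (0.0132) and Rrm2 (0.0197) added. Without treated replicate 1 Prim1 was added (0.0471). The authors' deposited table for 4 h had 4 members lower, Pif1, Tipin, Tyms (adjusted p = 0.0254) and Rrm2 (0.0467), and that for 24 h had 41.

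The response at 24 h was lower than that at 4 h in 41 of 42 members by the interaction of treatment and time, and higher in 0, against 27.1% of all genes with a lower and 26.7% with a higher response at 24 h. At an unadjusted p under 0.05 the members' counts were the same, against 29.4% of all genes lower. The median difference was -1.39 on the log2 scale, against 0.00 over all genes. Mcm2 had a difference of -0.09 ± 0.09 (adjusted p = 0.404). It was called with library totals alone (-0.24, adjusted p = 0.0278), where the median of all genes was -0.14. The calls of Pcna (-0.37 ± 0.15, adjusted p = 0.0450) and Orc6 (-0.35 ± 0.14, adjusted p = 0.0358) were near the threshold, and that of Pcna ended with DESeq2 (adjusted p = 0.0535) and with RLE size factors (0.0509). DESeq2 called 40 members lower, against 26.5% of all genes. Leaving out 1 library ended the call of Pcna in 9 cases, without vehicle replicate 1 or 2 or treated replicate 1 of 4 h or any library of 24 h, at adjusted p from 0.0568 to 0.138. It ended that of Orc6 in 7 cases, without vehicle replicate 2 or treated replicate 1 or 3 of 4 h or vehicle replicate 2 or any treated library of 24 h, at 0.0542 to 0.121. Pif1 and Tipin, already lower at 4 h, had differences of -2.53 ± 0.28 and -0.74 ± 0.21. On a scale common to all libraries the mean of Tipin was 24.1 CPM in vehicle and 14.4 in treated libraries at 4 h and 38.2 and 13.6 at 24 h, so that its vehicle level was higher at 24 h while its treated libraries of both times overlapped.

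In the vehicle cells the same genes rose over time. Of 42 members 40 were higher at 24 h than at 4 h and 0 were lower, against 25.9% of all genes higher and 25.8% lower, with 42 higher and 0 lower at an unadjusted p under 0.05 (29.0% of all genes higher), and DESeq2 gave 40 and 0 (25.2%). The median was 0.65 on the log2 scale, against 0.01 over all genes. Tk1 rose most (1.58 ± 0.14), followed by Pif1 (1.57 ± 0.12) and Tyms (1.15 ± 0.10). Pole (0.27 ± 0.10, adjusted p = 0.0509) and Fen1 (0.60 ± 0.27, adjusted p = 0.0842) did not pass the test, and Pole did so without vehicle replicate 1 (adjusted p = 0.0124) or 3 (0.0445) of 4 h, with library totals alone (0.0285) and with no filter (0.0309), as Fen1 did with no filter (0.0432). The rise of Orc6 (0.33 ± 0.10) was not called without vehicle replicate 2 of 4 h (adjusted p = 0.0512) or of 24 h (0.0799). Mcm2 rose by 0.60 ± 0.07 like the other licensing genes, whose 10 members lay between 0.33 and 0.99. The 4 h and 24 h libraries come in separate tables, and the names of the 24 h group means carry an extra prefix that the labels do not explain, so time and library set cannot be told apart here.

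Most members ended below the level of the vehicle cells at the earlier time, and a few did not. On a scale common to all 12 libraries, treated libraries at 24 h lay all below the vehicle libraries of 4 h in 35 members, as they did in 36.5% of all genes. Gins3, Gins4, Pcna, Rpa1 and Fen1 overlapped with the vehicle level of 4 h, and Mcm2 and Pola2 lay above it. The geometric mean of the members was 27.8 to 31.3 CPM in vehicle and 24.7 to 27.0 CPM in treated libraries at 4 h, and 46.6 to 47.8 and 13.6 to 14.7 CPM at 24 h.

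**Figure D5:**
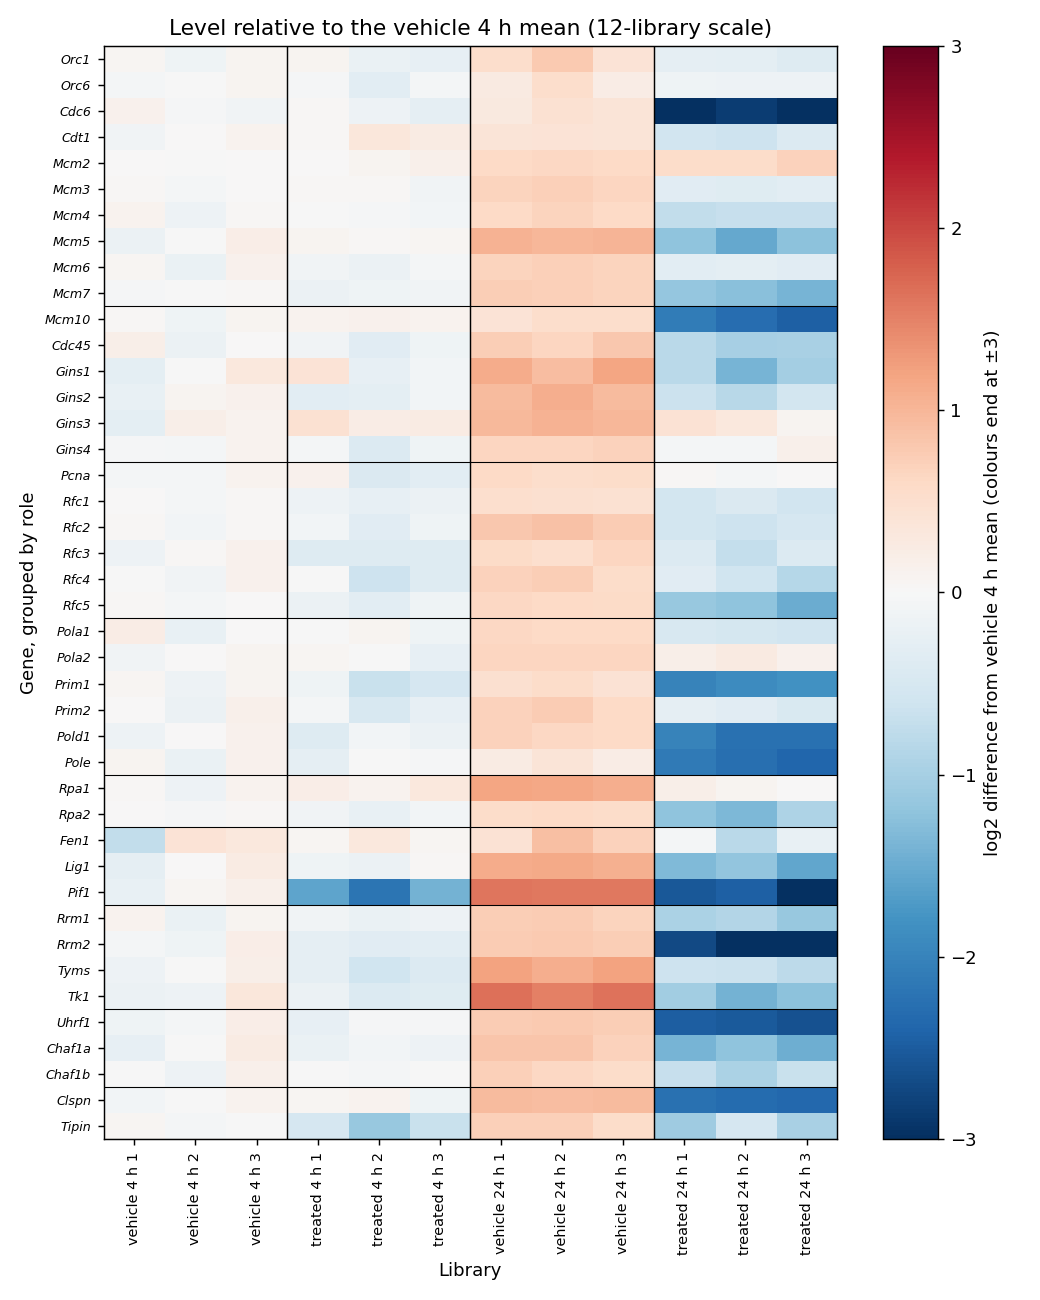
Log2 level of each member (rows, grouped by role) in each of the 12 libraries (columns) relative to the vehicle mean at 4 h, on a scale common to all libraries, with colours ending at ±3. Vehicle at 24 h is above the vehicle mean at 4 h across the set, and treated libraries at 24 h lie below every vehicle library of 4 h in 35 members and above every one of them in Mcm2 and Pola2.

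Other genes of the same pathways were taken from lists drawn up with earlier results of these data known. Of 48 other genes of DNA replication, 36 fell and 7 rose at 24 h, with a median of -0.93. The shares over all genes were 38.0% and 36.7%. At 4 h 8 of 47 tested fell and 0 rose, against 3.71% and 3.45% of all genes. With the replicate block 15 fell and 1 rose, where 6.74% of all genes fell. The largest falls at 24 h were those of Pclaf, a PCNA-binding factor (-4.63 ± 0.14), and Dscc1, a subunit of an alternative clamp loader (-3.60 ± 0.25). At 4 h they were those of Rpa3, the small RPA subunit (-0.97 ± 0.19), and Gmnn, the licensing inhibitor geminin (-0.61 ± 0.16). The 7 that rose at 24 h, named after their values were seen, were Recql4 (1.37 ± 0.09), Orc4 (0.88 ± 0.06), Mtbp (0.74 ± 0.07), Top1 (0.53 ± 0.05), Pole4 (0.41 ± 0.06), Supt16 (0.32 ± 0.05) and Dbf4 (0.21 ± 0.06). Orc4, an origin recognition subunit, was at 41.6, 44.9 and 42.5 CPM in vehicle and 75.1, 78.1 and 83.6 CPM in treated libraries at 24 h, where Orc1 fell, and Recql4, a helicase that helps fire origins, was at 11.1, 11.7 and 11.2 and at 30.6, 30.9 and 25.9 CPM. Both sets of treated libraries were all above vehicle.

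Of 25 G1/S regulators, 19 fell and 5 rose at 24 h, with a median of -0.98, against 38.0% and 36.7% of all genes. At 4 h 7 fell and 1 rose, against 3.71% and 3.45% of all genes. Cyclin A2, Ccna2, fell most at both times, by 4.62 ± 0.10 at 24 h and 0.97 ± 0.14 at 4 h on the log2 scale. The repressor E2f8 fell by 4.47 ± 0.16 at 24 h and cyclin E2, Ccne2, by 0.88 ± 0.18 at 4 h. The CDK inhibitor p21, Cdkn1a, was the regulator that rose at 4 h, from 648, 716 and 647 CPM to 853, 956 and 913 CPM (0.44 ± 0.08, adjusted p = 0.00842), and it rose by 0.91 ± 0.05 at 24 h, from 426, 443 and 417 CPM to 771, 791 and 855 CPM. In both cases all treated libraries were above vehicle. The activator E2f1 did not pass the test at 4 h (0.17 ± 0.11, adjusted p = 0.422) and fell by 0.91 ± 0.07 at 24 h. Cdkn1a, E2f1 and the genes that follow were named after their values were seen. The other CDK inhibitor of the list, Cdkn1b, fell by 0.52 ± 0.13 at 4 h (adjusted p = 0.0293) and by 0.63 ± 0.08 at 24 h. The other regulators that rose at 24 h were E2f6 (0.78 ± 0.05), E2f4 (0.72 ± 0.06), Rb1 (0.35 ± 0.08) and E2f3 (0.24 ± 0.06).

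All 25 mitosis genes fell at 24 h, with a median of -3.43, against 38.0% of all genes. At 4 h 19 of 25 fell, with a median of -0.63, against 3.71% of all genes. Of the replication members 2 of 42 fell at 4 h, with a median of -0.13. Cenpf, a kinetochore protein, had -4.75 ± 0.13 and the spindle motor Kif11 -4.44 ± 0.09 at 24 h. Plk1, a mitotic kinase, had -0.95 ± 0.17 and Kif11 -0.92 ± 0.13 at 4 h. In vehicle all 25 rose from 4 h to 24 h, with a median of 1.32, against 25.9% of all genes. The difference between the lists was not tested.

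Promoters of the members were read to see which sequence features they share, since the genes moved together. The RefSeq table of promoters on GRCm38.p6, from 250 bases before to 50 bases after each start, holds 33 of the 42 members. This build is not that of the count tables, so its coordinates stand apart from those given above. An E2F-type motif (TTTGGCGC, TTTGCCGC, TTTCGCGC or TTTCCCGC, on either strand) occurred in 14 of 33 members (42.4%) and in 2.6% of all 27025 genes of the table. The NF-Y motif CCAAT occurred on either strand in 22 of 33 (66.7%) and in 41.1% of all genes, and the CHR motif TTTGAA in 4 of 33 (12.1%) and 20.2%. In the shorter window of 150 bases before to 50 after the start, the CHR motif was in 12.1% of members and 12.8% of all genes. The genes of the promoter table were not limited to those expressed in these cells, nor matched to the members in base composition. These motifs are short and a match is no evidence of binding. Split by the size of the 24 h fall, E2F-type motifs were found in 7 of the 16 members with the larger and 7 of the 17 with the smaller fall, NF-Y motifs in 10 and 12, and CHR motifs in 0 and 4.

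The promoters of the 3 members with the largest fall at 24 h that have an entry, Rrm2 (-3.74), Cdc6 (-3.62) and Uhrf1 (-3.31), are shown here beside those of the 3 with the smallest change, Mcm2 (-0.01), Pola2 (-0.46) and Orc6 (-0.50), each 5′ to 3′ on the strand of the gene. Capitals mark the E2F-type, NF-Y and CHR motifs. The regions are chr12:24708004-24708303 (plus strand) for Rrm2, chr11:98907901-98908200 (plus strand) for Cdc6, chr17:56303087-56303386 (plus strand) and chr17:56304063-56304362 (plus strand) for the 2 entries of Uhrf1, chr6:88898731-88899030 (minus strand) for Mcm2, chr19:5964157-5964456 (minus strand) for Pola2 and chr8:85299382-85299681 (plus strand) for Orc6.
Rrm2: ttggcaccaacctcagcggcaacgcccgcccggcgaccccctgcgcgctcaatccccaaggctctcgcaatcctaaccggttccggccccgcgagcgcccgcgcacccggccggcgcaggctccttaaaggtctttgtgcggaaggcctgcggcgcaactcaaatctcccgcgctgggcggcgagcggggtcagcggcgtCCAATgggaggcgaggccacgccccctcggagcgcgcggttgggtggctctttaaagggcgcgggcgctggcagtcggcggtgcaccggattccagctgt
Cdc6: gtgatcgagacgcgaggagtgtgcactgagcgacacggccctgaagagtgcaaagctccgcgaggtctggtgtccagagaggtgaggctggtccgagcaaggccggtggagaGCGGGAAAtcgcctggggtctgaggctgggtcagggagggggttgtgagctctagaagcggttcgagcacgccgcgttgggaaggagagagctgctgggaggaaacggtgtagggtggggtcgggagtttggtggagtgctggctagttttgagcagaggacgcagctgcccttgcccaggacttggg
Uhrf1, upstream entry: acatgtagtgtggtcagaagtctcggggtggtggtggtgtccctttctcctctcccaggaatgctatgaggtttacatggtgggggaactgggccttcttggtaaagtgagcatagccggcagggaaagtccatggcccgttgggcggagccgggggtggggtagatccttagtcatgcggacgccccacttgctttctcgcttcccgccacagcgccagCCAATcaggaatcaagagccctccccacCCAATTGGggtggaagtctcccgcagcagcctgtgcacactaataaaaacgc
Uhrf1, downstream entry: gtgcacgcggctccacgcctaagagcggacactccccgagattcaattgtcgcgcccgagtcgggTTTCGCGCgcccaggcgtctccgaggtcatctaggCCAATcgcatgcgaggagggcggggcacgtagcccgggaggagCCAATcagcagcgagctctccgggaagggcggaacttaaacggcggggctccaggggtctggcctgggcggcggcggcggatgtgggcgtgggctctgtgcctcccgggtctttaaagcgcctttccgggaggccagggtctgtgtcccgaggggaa
Mcm2: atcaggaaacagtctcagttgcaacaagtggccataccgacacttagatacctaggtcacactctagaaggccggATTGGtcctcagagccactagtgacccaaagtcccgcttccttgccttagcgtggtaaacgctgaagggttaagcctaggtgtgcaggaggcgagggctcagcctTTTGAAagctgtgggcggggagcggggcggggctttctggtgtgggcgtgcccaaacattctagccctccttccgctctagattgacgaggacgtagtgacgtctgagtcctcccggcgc
Pola2: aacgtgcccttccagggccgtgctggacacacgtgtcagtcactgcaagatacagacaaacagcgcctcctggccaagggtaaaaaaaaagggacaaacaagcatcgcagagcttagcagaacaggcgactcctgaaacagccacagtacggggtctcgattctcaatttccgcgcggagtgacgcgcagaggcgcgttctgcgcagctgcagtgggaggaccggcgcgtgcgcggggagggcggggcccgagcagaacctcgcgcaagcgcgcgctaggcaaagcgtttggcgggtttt
Orc6: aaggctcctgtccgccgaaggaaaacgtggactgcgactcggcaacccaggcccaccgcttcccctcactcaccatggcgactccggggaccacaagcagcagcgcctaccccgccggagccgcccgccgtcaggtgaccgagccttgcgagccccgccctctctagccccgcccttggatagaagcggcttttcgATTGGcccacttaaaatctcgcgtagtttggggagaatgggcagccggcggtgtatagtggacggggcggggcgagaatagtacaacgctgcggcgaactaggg

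Among these, the promoter of Rrm2 holds 1 NF-Y motif and neither of the other kinds, that of Cdc6 holds 1 E2F-type motif, and the downstream entry of Uhrf1 holds 1 E2F-type and 2 NF-Y motifs. In the upstream entry of Uhrf1 the 3 NF-Y matches include 2 on opposite strands that overlap each other. Mcm2 has 1 CHR and 1 NF-Y motif, Orc6 1 NF-Y motif, and Pola2 none of the letters searched. Of the members that fell most, Cdc6 and Uhrf1 hold an exact E2F-type match, and none of Mcm2, Pola2 and Orc6 does. With 3 genes a set this describes single promoters only. It also depends on the exact letters searched, since near matches were not counted. Pola2 holds TTTGGCGG and Rrm2 holds TCTCCCGC, each 1 base away from a searched E2F-type motif.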

How the data were processed

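RNA of mouse cardiac fibroblasts was sequenced in 12 libraries, 3 in each of 4 groups. The tools listed in the submitters' processing notes, with no role or order, are HISAT2 2.0.5, featureCounts 1.5.0-p3, DESeq and DESeq2, and the genome build is GRCm39. The authors deposited, per the file headers, 1 table per time with raw read counts, FPKM, normalized signal, gene length and a log2 fold change and p-value of their own. The labels do not state whether the kit marked strand. It is therefore not known whether reads of genes that overlap on opposite strands were told apart.

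Raw counts were tested with edgeR 4.0.16 (quasi-likelihood, robust, TMM, default filter of low counts; R 4.3.3), with p-values adjusted by Benjamini-Hochberg over all genes tested and called under 0.05. The difference between responses was an interaction over all 12 libraries, where a gene absent from 1 table entered as 0 counts. DESeq2 1.42.0, limma-trend 3.58.1 on log2(FPKM + 1), other scalings, no filter, all 12 libraries in 1 fit, a replicate block and leaving out each library were alternatives, and the code was tested on simulated counts. Log2 fold changes are treated minus vehicle with SE. Levels per kb are CPM divided by the deposited gene length. At 4 h the deviations of libraries with the same number from their group means correlated across genes with r = 0.14, 0.13 and 0.17. Those of libraries with unlike numbers lay between -0.15 and 0.01. At 24 h r was 0.04, 0.03 and -0.07 for the same number, and up to 0.10 for unlike numbers. The labels do not say that the numbers pair libraries, and pairing was not tested.

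The members, lists and naming rule were chosen with earlier results of these data known. By that rule, the members with the largest and the smallest 24 h change of each role class, the 5 with the largest 4 h change, any member called at neither time and the 2 called genes of each other list with the largest change were named. Figures were drawn with matplotlib 3.10.9 in Python 3.11.15.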

Additional observations from a re-analysis of the deposited data

Results flagged for a closer look

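The response to MCB-613-10-1 differed between the times in 41 of 42 members by the interaction of treatment and time (edgeR, adjusted p under 0.05), always toward a lower value at 24 h. Over all genes 27.1% had a lower and 26.7% a higher response at 24 h. The calls of Pcna and Orc6 were near the threshold. Leaving out 1 library ended that of Pcna in 9 cases and that of Orc6 in 7, and DESeq2 did not call Pcna. The differences, 24 h response minus 4 h response on the log2 scale, follow by role. Among licensing genes they were -0.78 for Orc1, -0.35 for Orc6, -3.49 for Cdc6, -1.14 for Cdt1, -1.0 for Mcm3, -1.28 for Mcm4, -2.38 for Mcm5, -0.88 for Mcm6 and -1.84 for Mcm7. For helicase activation they were -2.87 for Mcm10, -1.47 for Cdc45, -2.18 for Gins1, -1.44 for Gins2, -1.02 for Gins3 and -0.45 for Gins4. The clamp and its loader had -0.37 for Pcna, -0.80 for Rfc1, -1.20 for Rfc2, -0.69 for Rfc3, -0.93 for Rfc4 and -1.66 for Rfc5. Polymerase and primase genes had -1.10 for Pola1, -0.39 for Pola2, -1.97 for Prim1, -0.77 for Prim2, -2.58 for Pold1 and -2.42 for Pole. Single-strand binding genes had -1.25 for Rpa1 and -1.58 for Rpa2. Flap removal, ligation and Pif1 gave -1.10 for Fen1, -2.35 for Lig1 and -2.53 for Pif1. Nucleotide supply gave -1.54 for Rrm1, -3.41 for Rrm2, -1.43 for Tyms and -2.50 for Tk1. Chromatin copying gave -3.19 for Uhrf1, -1.99 for Chaf1a and -1.36 for Chaf1b. Fork protection gave -3.25 for Clspn and -0.74 for Tipin. With 3 libraries in each group, no test for single outlying libraries was made.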

How the results depend on the processing

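At 24 h, in the vehicle comparison over time and in the difference between responses, the member counts stayed within 1.5 times under every alternative run, and no member's call reversed. At 4 h the number of members that fell was 2. It became 5 with library totals, 5 with no filter, 6 with all 12 libraries in the fit and 6 with the replicate block. Without 1 library it ranged from 2 to 5. Over all genes, 569 of 15336 tested fell. In the same order of settings this became 814 of 15336, 851 of 26240, 1139 of 16341 and 1033 of 15336. The count of all genes called at 4 h was 1098, became 2198 with all 12 libraries in the fit and 1953 with the replicate block, and ranged from 443 to 1760 without 1 library. The cause of these changes was not tested. Among the members, the replicate block changed the calls of Rfc3, Prim1, Rrm2 and Tyms at 4 h. It also changed that of Fen1 in vehicle over time (adjusted p = 0.0183), and no other. In neither comparison are the numbers shown to pair libraries. Pif1, Gins1 and Cdc6 in treated libraries of 24 h and Fen1 throughout rest on few reads, which limits their precision. With a window of 150 bases before to 50 after the start, members with an E2F-type, CHR or NF-Y motif numbered 13, 4 and 20 in place of 14, 4 and 22, against 1.91%, 12.8% and 31.9% of all genes.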
